A study of Mus musculus with 12 samples.

Results

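Class I antigen presentation genes were followed in mouse dental epithelial stem cell colonies that lacked Bmi1, alone or together with Ink4a/Arf. The members were 10 genes: the heavy chains H2-K1, H2-D1, H2-Q1 and H2-T23, the light chain B2m, the transporter subunits Tap1 and Tap2, the loading factor Tapbp, and the immunoproteasome subunits Psmb8 and Psmb9. All non-control array probes whose accession maps to one of these symbols were taken, which gave 16 probes of 41174 on the array. The set was chosen by measured values of these arrays, since the log2 difference of H2-Q1 against wild type (WT) was among the largest falls, so every comparison with WT below is a description. The contrast between the mutants was not used in that choice and is the one that was tested.

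The 12 samples were single colonies grown in culture from the labial cervical loop, the epithelial stem cell niche of the mouse incisor, 4 of each genotype. The genotypes were Bmi1-;Ink4a/Arf- (double null), Bmi1- (Bmi1 null) and WT, and the labels give the genetic background of all of them as mixed. Each colony was hybridised to 1 one-colour Agilent whole mouse genome array after whole-transcriptome amplification of its RNA. Levels below are log2 processed signals with the 75th percentile of the same array subtracted, so a level of 0 is a probe as bright as that percentile, and levels are compared only between arrays for the same probe. How many mice gave the colonies is not stated in the labels, and the p-values cover only the spread between single colonies, which may be partly technical.

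MHC class I molecules show short peptides from inside the cell to cytotoxic T cells at the surface. The proteasome, with Psmb8 and Psmb9 exchanged into it as the immunoproteasome, cuts proteins into peptides. The Tap1 and Tap2 pair carries them into the endoplasmic reticulum, where Tapbp (tapasin) holds the transporter and an empty class I molecule together until a peptide has bound to the heavy chain and B2m. In the mouse the classical heavy chains are H2-K1 and H2-D1, and the Q and T regions of the MHC encode further, mostly non-classical ones. The heavy chain genes are highly polymorphic and closely alike in sequence, and the gene content of the Q region differs between strains. The H-2 haplotype of the mice is not given in the labels.

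The targeted genes and the tissue markers were looked at first. Bmi1, by its brighter probe, had a level of -2.52 ± 0.21 in double null, -2.36 ± 0.15 in Bmi1 null and -0.27 ± 0.46 in WT colonies (SD, n = 4 each). Cdkn2a, which encodes both Ink4a and Arf, was well above background on 0 of 4 double null, 4 of 4 Bmi1 null and 0 of 4 WT arrays. By the processed signals, double null colonies had at least 2.51-fold lower Cdkn2a signal than the Bmi1 null ones. The fit of the signals as measured, and not that bound, gave a limma adjusted p of 7.20e-06. In the authors' deposited values the log2 difference was -0.90, which is smaller than that bound. Whether either probe lies inside the deleted part of its gene was not analysed here. All 11 measured epithelial markers were well above background on all 12 arrays, with a summed signal of 511 to 940 times the array's 75th percentile in double null, 490 to 686 times in Bmi1 null and 141 to 415 times in WT arrays. The WT arrays had a narrower range of signal: the interquartile range was 4.04 to 4.93 in double null, 4.32 to 4.69 in Bmi1 null and 2.49 to 2.62 in WT arrays on the log2 scale. Median processed signals ran from 63.2 to 157 on double null, 82.8 to 190 on Bmi1 null and 109 to 210 on WT arrays, and the number of arrays limits the precision.

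All 16 member probes passed the filter on dim probes, and 15 of them were well above background on all 12 arrays. The exception was H2-Q1. The probes lay on 34 spots, since 1 probe of H2-K1 and 1 of B2m are each printed 10 times. The SD over those 10 spots had a median over arrays of 0.0923 for H2-K1 and 0.107 for B2m on the log2 scale, below the SD of the 4 colonies of each genotype for these probes. All members except B2m, which is on chromosome 2, lie on chromosome 17, the chromosome of the mouse MHC.

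**Figure D1:**
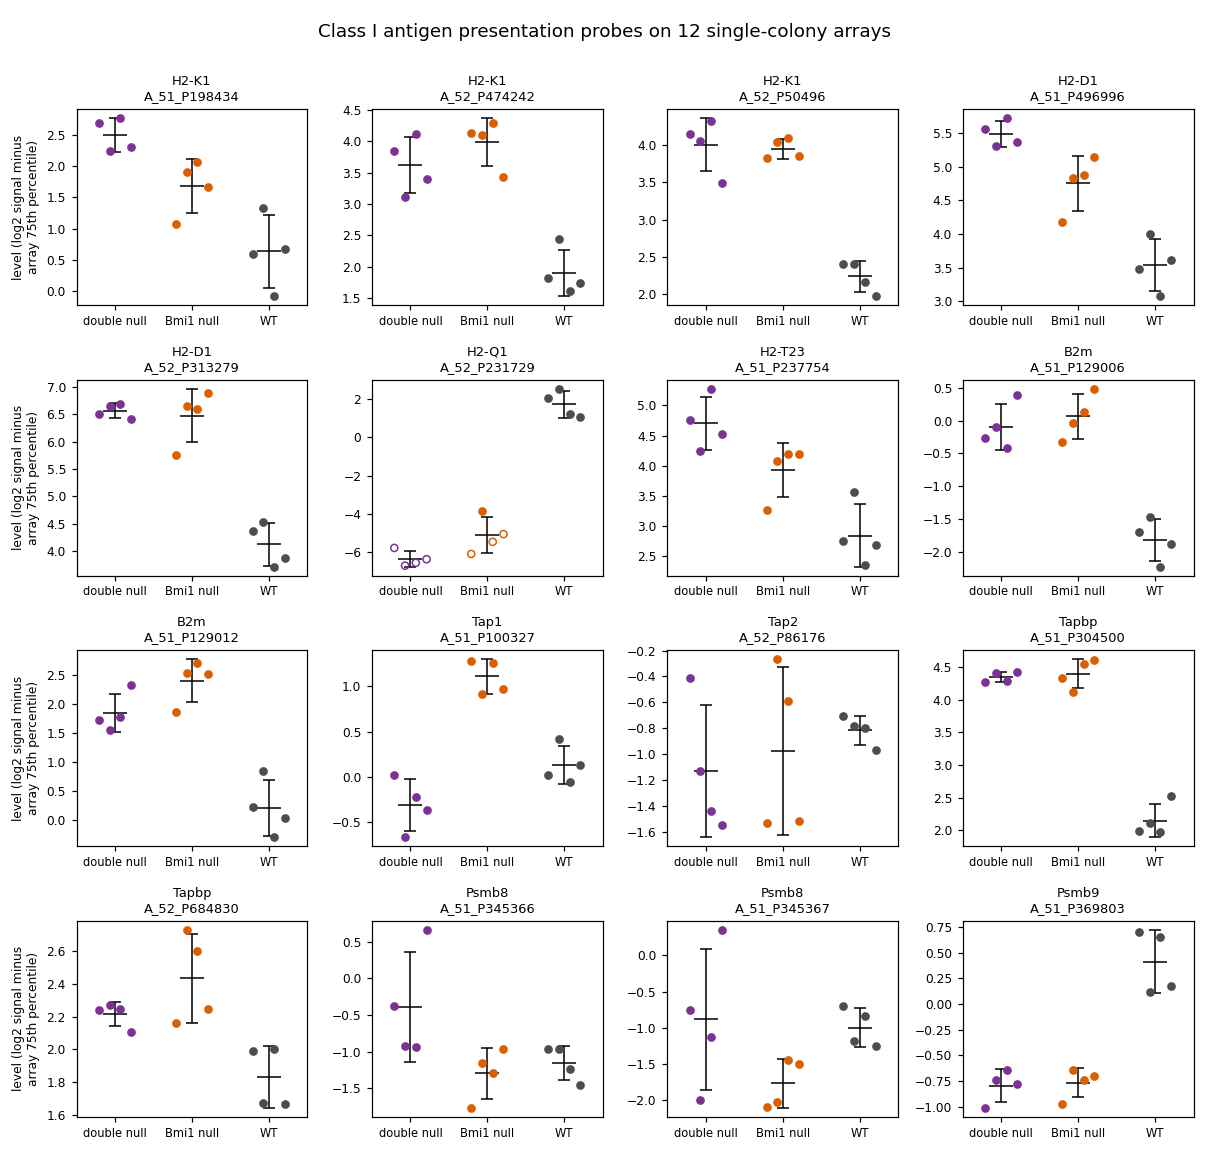
Each panel shows 1 probe, with the level (log2 signal relative to the 75th percentile of that array) on the vertical axis and double null, Bmi1 null and WT colonies from left to right. Points are single arrays (open: not well above background), and bars give mean and SD of 4 arrays. Tap1 separates the mutants, with 4 double null arrays at or below 0.01 and 4 Bmi1 null arrays at or above 0.92, and H2-Q1 lies at or below -3.84 in every mutant array.

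Between the mutants, 1 of the 16 member probes was called, Tap1, and it was lower in double null colonies. The threshold was a Benjamini-Hochberg adjusted p under 0.05 over all 39338 probes, in a limma fit of all 12 arrays. Of all probes tested 7.97% were called in this contrast, 3.18% higher and 4.78% lower, so 1 call of 16 is close to the background. Over all probes 1252 were called higher and 1882 lower, against 1405 and 1353 in the authors' deposited values and 1057 and 669 with normexp background correction. The median difference of the members was -0.04 on the log2 scale, and that of all probes was also -0.04. At an unadjusted p under 0.05 there were 7 of the 16, beside 22.7% of all probes. Arrays of the mutants did not overlap for 5 of the 16 probes, against 14.7% of all probes: H2-K1 (A_51_P198434), H2-D1 (A_51_P496996), H2-T23 and Psmb8 (A_51_P345366) lay above Bmi1 null in double null colonies, and Tap1 lay below.

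**Figure D2:**
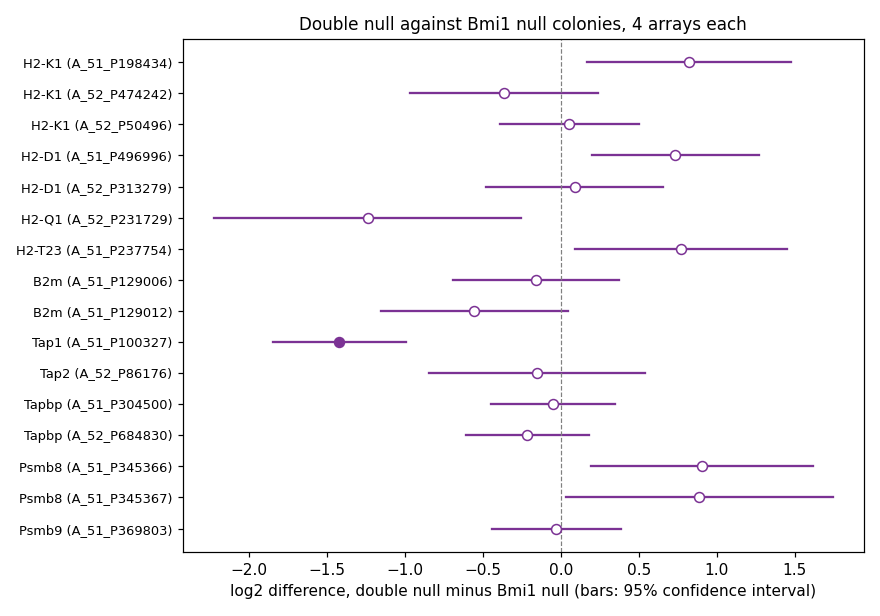
The log2 difference of double null minus Bmi1 null colonies is on the horizontal axis for each of the 16 probes, with its 95% confidence interval from the fit (n = 4 arrays each). The filled point was called after adjustment and open points were not. That of H2-Q1 rests mostly on signals not well above background. Tap1 is at -1.42, and the others lie on both sides of 0.

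Tap1 encodes a subunit of the peptide transporter. Its level was 0.01, -0.67, -0.22 and -0.36 in double null colonies, against 1.28, 0.92, 1.26 and 0.97 in Bmi1 null colonies, and 0.01, 0.42, -0.06 and 0.13 in WT colonies. The 4 Bmi1 null arrays were the 4 highest of the 12, with no overlap with either of the other genotypes. In the authors' deposited values Bmi1 null and WT arrays did overlap, with WT replicate 3 at 9.68 and Bmi1 null replicate 4 at 9.59. Tap1 fell in double null against Bmi1 null colonies, by 1.42 ± 0.20 on the log2 scale (SE, limma adjusted p = 0.00148), which is 2.68-fold lower with a 95% interval of the difference of -1.85 to -1.00. The call held in all 24 alternative settings, with adjusted p from 0.000264 to 0.0462 and differences from -1.53 to -1.15. In the authors' deposited values the difference was -1.18 with an adjusted p of 0.00735. Within slide 2, with 1 array of each mutant, it was -1.14, and within slide 3, with 2 double null arrays and 1 Bmi1 null array, it was -1.44. The size was not extreme among all probes, since 980 of the other probes fell further in this contrast.

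Psmb9, a catalytic subunit of the immunoproteasome, is the immediate neighbour of Tap1 and is read in the opposite direction from the same stretch. Its level was -1.01, -0.74, -0.64 and -0.78 in double null colonies, against -0.97, -0.64, -0.74 and -0.70 in Bmi1 null colonies. The arrays of the mutants lay in the same range. The difference was -0.03 ± 0.19 (SE, limma adjusted p = 0.953), with a 95% interval of -0.44 to 0.38. The difference between the changes of Tap1 and Psmb9 was not itself tested.

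The promoter windows below are shown because Tap1 and Psmb9 share theirs, and because the heavy chains H2-K1, H2-D1 and H2-T23 each had a probe whose double null arrays all lay above the Bmi1 null ones. Psmb8 also had such a probe, but its window is not shown. RefSeq windows of 300 bases, 250 before and 50 after the annotated start (GRCm38.p6), matched 8 of the 10 members. H2-Q1 and Tap2 have no window here. The windows of Tap1 (plus strand) and Psmb9 (minus strand) share 275 bases, so the Tap1 sequence also shows most of the Psmb9 window, read from the other strand. Capitals mark the letters GAAANNGAAA (as in interferon response elements), GGGNNTTCC (as in kappa B elements) and TGACG (as in cyclic AMP response elements), found on either strand.
Tap1, chr17:34187306-34187605 (plus strand): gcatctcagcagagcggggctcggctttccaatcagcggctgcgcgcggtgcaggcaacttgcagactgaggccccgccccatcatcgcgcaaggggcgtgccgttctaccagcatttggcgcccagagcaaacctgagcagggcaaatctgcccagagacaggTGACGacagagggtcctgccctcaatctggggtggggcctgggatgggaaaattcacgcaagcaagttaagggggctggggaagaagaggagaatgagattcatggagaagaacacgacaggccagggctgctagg
H2-K1, chr17:34000284-34000583 (minus strand): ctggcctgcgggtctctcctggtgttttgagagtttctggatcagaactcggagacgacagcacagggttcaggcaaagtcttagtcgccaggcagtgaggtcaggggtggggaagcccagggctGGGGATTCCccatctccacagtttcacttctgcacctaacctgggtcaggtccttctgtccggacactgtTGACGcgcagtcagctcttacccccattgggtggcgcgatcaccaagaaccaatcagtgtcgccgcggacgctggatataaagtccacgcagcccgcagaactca
H2-D1, chr17:35262844-35263143 (plus strand): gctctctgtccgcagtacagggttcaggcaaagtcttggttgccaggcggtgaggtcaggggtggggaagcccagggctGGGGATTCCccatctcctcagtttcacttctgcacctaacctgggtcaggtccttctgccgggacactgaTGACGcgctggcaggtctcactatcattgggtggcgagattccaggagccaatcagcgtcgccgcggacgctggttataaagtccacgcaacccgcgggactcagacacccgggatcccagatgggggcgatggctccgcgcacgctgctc
H2-T23, chr17:36032652-36032951 (minus strand): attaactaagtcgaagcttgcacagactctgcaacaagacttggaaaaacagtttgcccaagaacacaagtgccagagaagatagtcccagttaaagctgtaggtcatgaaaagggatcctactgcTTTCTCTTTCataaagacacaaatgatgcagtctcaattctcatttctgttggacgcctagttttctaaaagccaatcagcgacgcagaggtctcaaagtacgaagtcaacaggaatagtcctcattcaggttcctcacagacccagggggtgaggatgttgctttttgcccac

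The Tap1 window held TGACG once, which starts 86 bases before the annotated Tap1 start, and none of the interferon or kappa B letters. H2-K1 and H2-D1 each held GGGNNTTCC once and TGACG once, in the same order and spacing, and their windows shared an identical run of 47 bases. Set side by side without gaps on that run, 180 of 254 bases (70.9%) were the same. The H2-T23 window held GAAANNGAAA once, on the opposite strand, and the B2m window held it once as well. Of 32851 promoter windows of the same length, 3.44% held GAAANNGAAA, 5.82% GGGNNTTCC and 20.8% TGACG. The letters CCAAT, in 37.4% of all windows, stood at least once in those of H2-K1, H2-D1, H2-T23, B2m, Tap1, Tapbp and Psmb9. The letters GGGCGG, in 35.7% of all windows, stood in those of Tap1, Tapbp and Psmb9. No matches overlapped each other, and the Psmb8 window held none of the 5 motifs. A match describes letters in the window, and a missing match says nothing of the factor.

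Psmb8, the other immunoproteasome subunit, lies on the far side of Tap1 and had 2 probes. Its probe A_51_P345366 gave -0.37, -0.93, -0.93 and 0.66 in double null colonies, against -1.77, -1.16, -1.30 and -0.96 in Bmi1 null colonies. Probe A_51_P345367 gave -0.75, -2.00, -1.13 and 0.35 in double null colonies, against -2.10, -2.03, -1.45 and -1.50 in Bmi1 null colonies. Double null replicate 4 was the highest array of the 12 with both probes, and the mutants overlapped with the second probe only. The differences were 0.90 ± 0.33 and 0.89 ± 0.39 (SE, limma adjusted p = 0.117 and 0.202), neither called, with 95% intervals of 0.19 to 1.61 and 0.03 to 1.74. Without double null replicate 2 the second probe was called (1.26, adjusted p = 0.0486), and without double null replicate 4 the differences were 0.55 and 0.48. Tap2, the other transporter subunit, spread from -1.54 to -0.41 in double null and from -1.53 to -0.27 in Bmi1 null colonies. That spread was wider than in WT colonies, at -0.97 to -0.70, and its difference between the mutants was -0.16 ± 0.32 (SE, limma adjusted p = 0.829).

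**Figure D3:**
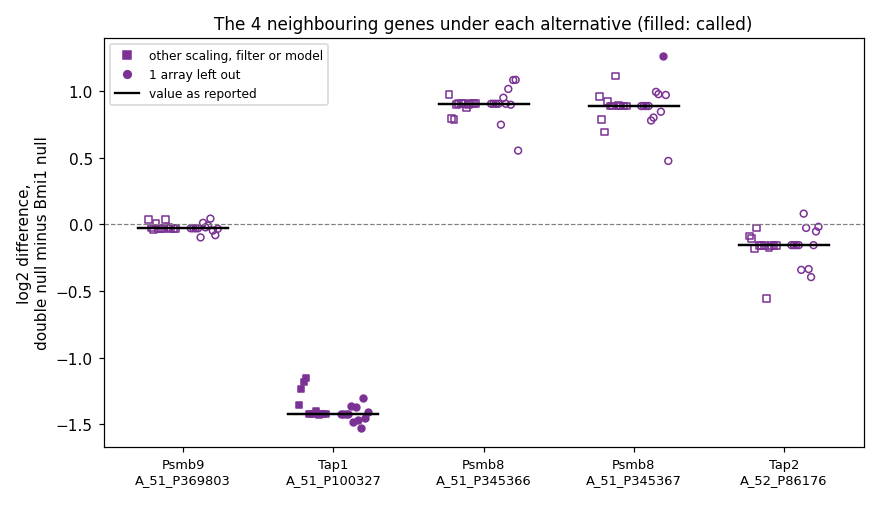
The 4 genes are in their order along the chromosome, with the log2 difference of double null minus Bmi1 null colonies on the vertical axis. Squares are other scalings, filters or models, circles leave out 1 array, black lines are the values as reported, and filled symbols were called. Tap1 is filled throughout between -1.53 and -1.15, Psmb9 stays between -0.10 and 0.04, and 1 symbol of Psmb8 is filled.

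The heavy chains had 7 probes, of which none was called between the mutants. H2-K1, a classical heavy chain, gave 3 answers with 3 probes. The 10-spot probe A_51_P198434 read 2.70, 2.24, 2.77 and 2.31 in double null colonies, against 1.08, 1.90, 2.08 and 1.67 in Bmi1 null colonies. All 4 double null arrays were above all 4 Bmi1 null arrays, and the difference was 0.82 ± 0.30 (SE, limma adjusted p = 0.122). With A_52_P474242 it was -0.37 ± 0.28 (limma adjusted p = 0.485) and with A_52_P50496 it was 0.05 ± 0.20 (limma adjusted p = 0.914), and the arrays of the mutants overlapped with both. The probes of H2-K1 thus disagree in sign, and no direction is given for the gene.

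H2-D1, the other classical heavy chain, had 2 probes. Probe A_51_P496996 gave 5.56, 5.30, 5.72 and 5.36 in double null colonies, against 4.17, 4.83, 4.87 and 5.14 in Bmi1 null colonies, a difference of 0.73 ± 0.25 (SE, limma adjusted p = 0.0932). The mutants did not overlap with that probe, but with A_52_P313279 they did and the difference was 0.09 ± 0.26 (limma adjusted p = 0.886). H2-T23, the mouse gene of the non-classical molecule Qa-1, gave 4.76, 4.24, 5.27 and 4.53 in double null colonies, against 3.26, 4.08, 4.19 and 4.19 in Bmi1 null colonies. The groups did not overlap, with the lowest double null array at 4.24 and the highest Bmi1 null array at 4.19, and the difference of 0.77 ± 0.31 was not called (SE, limma adjusted p = 0.161). Because heavy chain sequences are close and the probe sequences are not in the files used here, a probe may read more than 1 of these genes.

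Over the 6 heavy chain probes other than that of H2-Q1, the same few arrays were often the highest or lowest of their genotype, though the probes did not all follow one order. Double null replicate 3 was the highest of its genotype with 6 of 6 probes, and double null replicate 2 the lowest with 4. Bmi1 null replicate 1 was the lowest of its genotype with 5 of 6 probes. Among WT colonies, replicate 3 was the highest with 5 of 6 and replicate 4 the lowest with 5 of 6. Over the 8 mutant arrays, after centring within genotype, Pearson's r between pairs of these probes ran from -0.263 to 0.910. H2-T23 had an r of 0.909 with H2-D1 A_51_P496996 and 0.890 with H2-K1 A_51_P198434, whereas H2-K1 A_52_P474242 had -0.263 with H2-D1 A_52_P313279 and 0.385 with H2-T23. The probes may read some of the same transcripts and the arrays share their scaling, so they are not independent of each other.

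**Figure D4:**
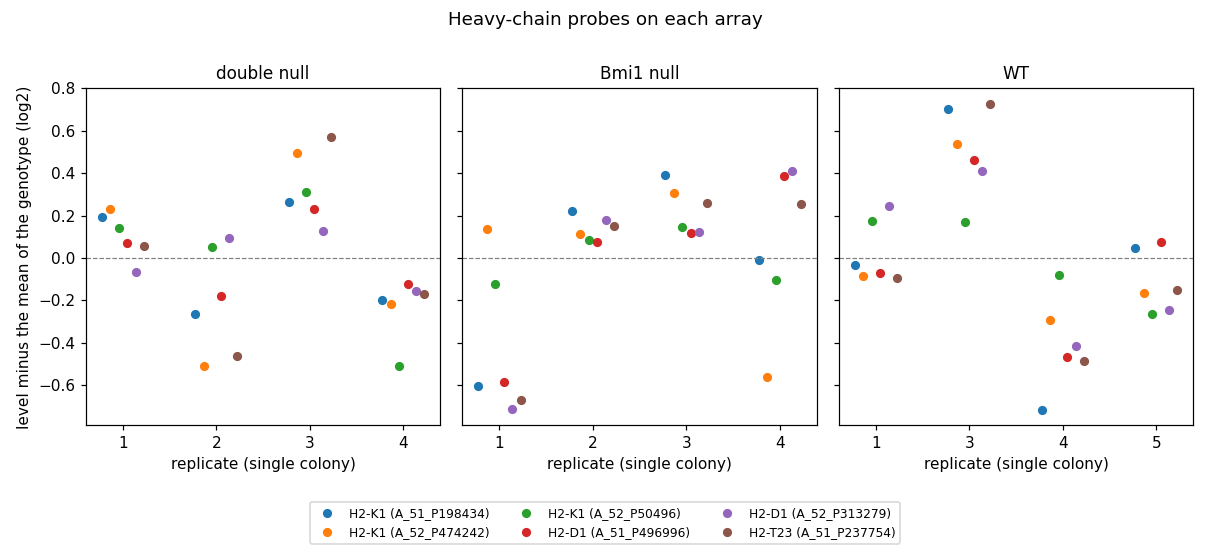
Each point is 1 of 6 heavy chain probes on 1 array, as its level minus the mean of its genotype (log2), with the replicates of double null, Bmi1 null and WT colonies from left to right. Most probes sit high in double null replicate 3 and WT replicate 3, and low in Bmi1 null replicate 1 and WT replicate 4. Replicate numbers name single colonies and have no order.

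B2m, the light chain common to class I molecules, and Tapbp showed no called difference between the mutants. B2m probe A_51_P129006 ranged from -0.42 to 0.40 in double null and from -0.32 to 0.49 in Bmi1 null colonies. Its probe A_51_P129012 ranged from 1.55 to 2.32 in double null and from 1.86 to 2.70 in Bmi1 null colonies. The differences were -0.16 ± 0.24 and -0.56 ± 0.28 (SE, limma adjusted p = 0.763 and 0.259). For Tapbp they were -0.05 ± 0.18 with A_51_P304500 and -0.22 ± 0.18 with A_52_P684830 (SE, limma adjusted p = 0.909 and 0.536). The 95% intervals of the Tapbp differences were -0.45 to 0.34 and -0.61 to 0.18.

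H2-Q1, a heavy chain gene of the Q region, was the member that set the choice. Its level was -5.78, -6.71, -6.56 and -6.37 in double null colonies and -6.10, -3.84, -5.46 and -5.06 in Bmi1 null colonies, against 2.06, 2.53, 1.19 and 1.07 in WT colonies. The probe was well above background on 0 of 4 double null arrays, on 1 of 4 Bmi1 null arrays (replicate 2) and on 4 of 4 WT arrays. No mutant array came near the lowest WT array. By the processed signals, double null colonies had at least 146-fold lower H2-Q1 signal than WT colonies. That bound was set by the dimmest signal that counts as above background on each array, and it holds for these signals only. The log2 difference of double null against WT colonies was smaller elsewhere. It was -5.34 in the authors' deposited values and -3.67 with normexp background correction. In Bmi1 null colonies 1 array of 4 measured the probe, so no size is given for their difference against WT. Between the mutants no array of double null and 1 of Bmi1 null colonies measured it. No size is given for the difference between the mutants either. The fitted difference of the signals as measured was not called (limma adjusted p = 0.121). With normexp background correction its sign turned, so no direction is given.

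Among the other Q region genes of the lists, H2-Q2, H2-Q7 and H2-Q10 lay the other way. H2-Q8 lay lower in the mutants, by far less than the bound of H2-Q1 in double null colonies. They are named here after their values were seen. H2-Q2 was at 5.98 ± 0.40 in double null, 5.64 ± 0.55 in Bmi1 null and 3.71 ± 0.45 in WT colonies. H2-Q7 was at 4.90 ± 0.25, 4.25 ± 0.53 and 2.74 ± 0.40 in double null, Bmi1 null and WT colonies, and H2-Q10 at 5.20 ± 0.19, 4.88 ± 0.49 and 2.77 ± 0.19 in the same genotypes (SD, n = 4 each). With the probes shown for these 3 genes the mutant colonies were brighter than WT, and in the authors' deposited values too their differences against WT were above 0. H2-Q2 had 2 probes and H2-Q10 had 4, and the brightest stood for each. These probes too may read more than 1 heavy chain gene. H2-Q8 was at -2.88 ± 0.52 in double null, -2.92 ± 0.38 in Bmi1 null and -1.11 ± 0.41 in WT colonies (SD, n = 4 each). Its differences against WT in the authors' deposited values were -0.65 in double null and -0.71 in Bmi1 null colonies. With the median difference of all probes subtracted, H2-Q8 stood at -0.72 in double null and -0.89 in Bmi1 null colonies.

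Against WT as a whole, the other members mostly stood higher in the mutants, on arrays where most probes stood lower. Of the 16 probes, 10 were past the threshold higher and 2 lower in double null colonies, against 84.1% of all probes past it (29.4% higher, 54.7% lower). In Bmi1 null colonies 11 were higher and 2 lower, against 82.4% of all probes (28.8% higher, 53.6% lower). Groups did not overlap for 13 probes in double null and 12 in Bmi1 null colonies, against 79.9% and 78.8% of all probes. These shares say how far the WT arrays stand from both mutants, and nothing is read from them for the members. The median difference of all probes was -1.06 in double null and -0.92 in Bmi1 null colonies, so the values below are given relative to it. The members' median was then 2.74 in double null and 1.99 in Bmi1 null colonies, 14 probes lying above 0 and 2 below in each, those of H2-Q1 and Psmb9. Subtracting that median does not adjust for the narrower signal range of WT arrays. Over only the probes above background on all 12 arrays, the median of all probes was -0.04 in double null and -0.03 in Bmi1 null colonies. The members' median, without H2-Q1, was then 1.76 and 1.12, so the relative values depend on the dim probes.

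The size of this shift depended on the scaling. Over all probes, 11567 were past the threshold higher and 21533 lower in double null colonies, against 15407 and 13538 in the authors' deposited values. In Bmi1 null colonies the split was 11318 higher and 21093 lower, against 15184 and 13494 there. In the authors' deposited values the members' median relative to all probes was 0.80 in double null and 0.54 in Bmi1 null colonies, and after quantile normalisation it was 0.64 and 0.54. B2m A_51_P129006 kept most of its difference: it was 2.78 in double null and 2.81 in Bmi1 null colonies relative to all probes, and 2.23 and 2.39 in the authors' deposited values. H2-D1 A_52_P313279 was at 3.49 and 3.27 in double null and Bmi1 null colonies, against 1.34 and 1.32 in the authors' deposited values. Tapbp A_51_P304500 was at 3.25 and 3.17, against 1.18 and 1.26 there, while Tapbp A_52_P684830, at 1.44 and 1.52, turned to -0.74 and -0.47. H2-T23 was at 2.92 and 2.01, against 0.74 and 0.089. Psmb9 was below 0 in both mutants, at -0.15 and -0.26 relative to all probes and at -1.52 and -1.47 in the authors' deposited values. It turned above 0 relative to all genes, when 1 probe stood for each gene. Here and below, all genes are 31849 probes: 1 for each symbol, and every probe without a symbol as a gene of its own.

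**Figure D5:**
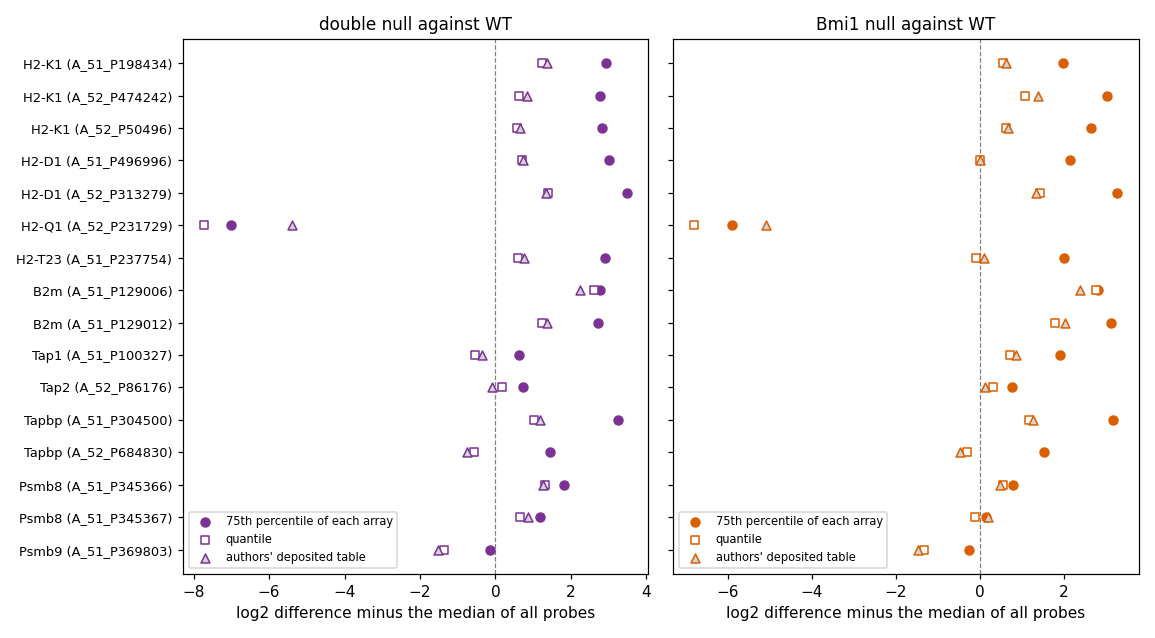
The log2 difference against WT minus the median of all probes is on the horizontal axis for each of the 16 probes, for double null colonies on the left and Bmi1 null colonies on the right. Circles use the 75th percentile of each array, squares quantile normalisation and triangles the authors' deposited table. H2-Q1, whose mutant signals are mostly not well above background, lies far below 0 under the 3 scalings, and most other probes move toward 0 under quantile normalisation and in the deposited table.

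The gene pair Tap1 and Psmb8 had these values against WT. Tap1 was at 0.62 in double null and 1.91 in Bmi1 null colonies relative to all probes, and the double null value turned to -0.35 in the authors' deposited values and -0.54 with quantile normalisation. Psmb8 A_51_P345366 was at 1.82 and 0.78, and A_51_P345367 at 1.17 and 0.15, in double null and Bmi1 null colonies. With probes above background on all 12 arrays as the background, Tap1 turned to -0.40 in double null colonies, and in Bmi1 null colonies Psmb8 turned to -0.11 with A_51_P345366 and -0.74 with A_51_P345367. The second Psmb8 probe also turned to -0.13 with quantile normalisation and -0.038 with the slide as a fixed block, so no direction is given for Psmb8 in Bmi1 null colonies. These values share the WT arrays, so they are set side by side and not compared.

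Markers of other cells moved with the comparison against WT. Class I genes are abundant in immune cells, whose 16 measured markers, of 17 listed, had a summed signal of 1.74 to 3.08 times the array's 75th percentile in double null, 2.09 to 2.79 times in Bmi1 null and 14.6 to 18.2 times in WT arrays. All 16 were well above background on every WT array, and 13 on every array of each mutant. The common leukocyte marker Ptprc was at -4.85 ± 1.40 in double null, -5.51 ± 0.62 in Bmi1 null and -1.08 ± 0.19 in WT colonies (SD, n = 4 each). Its probe was well above background on only 2 of 4 double null and 3 of 4 Bmi1 null arrays. Class II genes, 11 measured, summed to 2.52 to 4.36 times in double null, 2.25 to 4.91 times in Bmi1 null and 12.1 to 12.9 times in WT arrays. The 7 endothelial markers summed to 0.60 to 1.14 times in double null and 0.56 to 0.87 times in Bmi1 null arrays. In WT arrays they summed to 2.69 to 3.60 times. The lower sums were thus not particular to immune markers, though fibroblast and mesenchyme sums of double null arrays overlapped WT. Of spots, 74.8% to 87.6% were well above background on double null, 77.2% to 84.4% on Bmi1 null and 90.7% to 96.9% on WT arrays. The part of such cells, or of the narrower signal range of WT arrays, in these levels was not tested. Fewer cells of a type and less RNA per cell cannot be told apart in these samples. Between the mutants 0 of the 16 immune markers, 0 of 11 class II genes, 0 of 10 fibroblast and mesenchyme markers and 0 of 7 endothelial markers were called, where 7.85% of all genes were. Epithelial markers did move there, 3 of 11 rising: Cldn7 by 3.59 ± 0.32, Epcam by 1.73 ± 0.34 and Cldn1 by 1.41 ± 0.25 on the log2 scale (SE, limma adjusted p = 8.60e-05, 0.00913 and 0.00540). Of 7 markers of dental epithelial stem cells 2 rose, Igfbp5 by 4.92 ± 0.60 and Lgr5 by 1.93 ± 0.41 (SE, limma adjusted p = 0.000693 and 0.0140). Against WT, 2 of those 7 were past the threshold higher and 4 lower in double null colonies, beside 59.7% of all genes lower. In Bmi1 null colonies 1 was higher and 6 lower, beside 58.2% of all genes lower. These 7 markers include Bmi1 itself, the gene targeted in both mutants, and it is among the lower ones in each. Against WT 11 of the 11 epithelial markers were past the threshold higher in double null and 9 in Bmi1 null colonies, beside 25.7% and 25.3% of all genes. The part of these marker differences in the class I levels was not tested.

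The rest of the pathway was read from gene lists, with 1 probe per gene, for double null against Bmi1 null colonies. Of all genes, with probes without a symbol counted as genes, 7.85% were called (2.96% higher, 4.89% lower). Of 17 other class I heavy chains, 0 rose and 3 fell. H2-T24 fell by 1.84 ± 0.33 on the log2 scale (SE, limma adjusted p = 0.00542), to -2.47 ± 0.80 in double null, against -0.63 ± 0.23 in Bmi1 null colonies (SD, n = 4 each). H2-M10.2 fell by 1.35 ± 0.26 and H2-Bl by 0.92 ± 0.22 (SE, limma adjusted p = 0.00816 and 0.0247). Another probe of H2-T24 and 1 of H2-Bl differed the other way, so these 2 genes have no settled direction. The median over the 17 genes was 0.03, against -0.06 over all genes.

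Of 8 class I-like molecules, 2 rose and 0 fell. Cd1d1, which presents lipids to natural killer T cells, had at least 2.58-fold higher signal in double null colonies than in Bmi1 null ones. It was well above background on 4 of 4 double null and 0 of 4 Bmi1 null arrays. The limma adjusted p of 0.000992 is from the fit of the signals as measured, and not from that bound. Its log2 difference in the authors' deposited values was 0.73. Fcgrt, the neonatal Fc receptor, which also pairs with B2m, rose by 1.27 ± 0.34 (SE, limma adjusted p = 0.0388).

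Of 10 genes of loading and trimming, 1 rose and 1 fell. Erap1, the aminopeptidase that trims peptides in the endoplasmic reticulum, rose by 1.13 ± 0.21, to -1.57 ± 0.17 in double null, against -2.70 ± 0.33 in Bmi1 null colonies (SE and SD, n = 4 each, limma adjusted p = 0.00704). Lnpep, an aminopeptidase of endosomes, fell by 1.11 ± 0.20 (SE, limma adjusted p = 0.00554). Among 8 proteasome partners, 1 rose, Psmb7, the constitutive subunit that Psmb10 replaces in the immunoproteasome, by 0.95 ± 0.24 (SE, limma adjusted p = 0.0292). The median over these 8 genes was 0.34, against -0.06 over all genes.

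Of 25 regulators tested, 0 rose and 1 fell: Nfyb, a subunit of the CCAAT-binding factor NF-Y, by 1.10 ± 0.24 (SE, limma adjusted p = 0.0148). Irf1, which carries the interferon signal to class I promoters, differed by 0.16 ± 0.30 (SE, limma adjusted p = 0.810), and is named after its value was seen. Nlrc5, the class I transactivator, has no probe named here. Of 26 interferon-stimulated genes, 0 rose and 1 fell, Gbp5, a guanylate-binding protein, by 1.21 ± 0.32 (SE, limma adjusted p = 0.0369). The median over the 26 genes was -0.07, against -0.06 over all genes.

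Against WT the lists are again a description, on a background of 85.4% of all genes past the threshold in double null and 83.5% in Bmi1 null colonies. The loading and trimming list was past the threshold higher for 9 and lower for 0 of 10 genes in double null and likewise in Bmi1 null colonies, beside 25.7% and 25.3% of all genes past it in that direction. Sec61g, a subunit of the channel into the endoplasmic reticulum, had the largest difference of that list, 2.49 in double null and 2.47 in Bmi1 null colonies. Of the proteasome partners 7 were higher and 1 lower in each mutant. Psme2, a subunit of the interferon-inducible proteasome activator, was at 1.62 ± 0.13 in double null, 1.37 ± 0.28 in Bmi1 null and -0.70 ± 0.23 in WT colonies (SD, n = 4 each). Interferon-stimulated genes were lower for 18 and higher for 3 of 26 in double null, and lower for 19 and higher for 2 in Bmi1 null colonies, beside 59.7% and 58.2% of all genes lower. Ifit3, an antiviral protein, was at -4.21 ± 0.83 in double null, -5.26 ± 0.50 in Bmi1 null and 0.19 ± 0.15 in WT colonies. Its probe was well above background on only 3 of 4 double null and 2 of 4 Bmi1 null arrays. Among the other heavy chains, 5 were higher and 12 lower of 17 in double null, and 4 higher and 11 lower in Bmi1 null colonies. Several of the lower ones were dim in the mutants. H2-M10.4, H2-M10.6 and H2-M11 were well above background on 0 of 4 arrays of each mutant. They passed the filter only through WT, so nothing is read from their falls. In the authors' deposited values the median of the 17 genes was -0.16 in double null and -0.07 in Bmi1 null colonies. H2-T3, the gene of the thymus leukaemia antigen, was at -4.75 ± 0.32 in double null, -3.83 ± 0.65 in Bmi1 null and 0.16 ± 0.39 in WT colonies. Its probe was well above background on 3 of 4 double null arrays.

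The genes most like the members over the 8 mutant arrays were ranked by Pearson's r with the mean of the 10 members, after centring within genotype, among 16430 genes with a symbol. They were Tor3a (r = 0.983, rho = 0.929), Elf3 (0.968 and 0.833), Gpr173 (0.967 and 0.905), Nap1l5 (0.967 and 0.810) and Tgif2 (0.961 and 0.881). The arrays share scaling and amplification, and the values are a description of a ranking with no test. The mean includes H2-Q1, which was well above background on 0 of 4 double null and 1 of 4 Bmi1 null arrays. The members did not share 1 profile. Between pairs of the probes in that mean, r ran from -0.739 (H2-K1 A_52_P50496 and Psmb8 A_51_P345366) to 0.816 (B2m A_51_P129012 and Psmb8 A_51_P345366). Without Bmi1 null replicate 1 and double null replicate 2, the arrays farthest from the median, r was 0.924 for Tor3a and 0.576 to 0.817 for the other 4.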

How the data were processed

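RNA of 12 colonies was amplified, labelled with Cy3 and hybridised to one-colour Agilent arrays, per the labels' protocols. The deposited scanner files hold the authors' intensity values, extracted with Feature Extraction 10.7.3.1, per the file headers. Their processed signal is background-subtracted. A deposited table holds the authors' processed log2 values of the same arrays, made from them by a step that the sources used here do not name. Its scale was found by setting each column against that array's own signal (r 0.992 to 1.00), with column medians of 7.21 to 7.24, and it served as an alternative.

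Control spots and spots marked as outliers were left out. Of 41174 probes, 24844 matched 1 symbol through a RefSeq table of assembly GRCm38.p6, 0 matched several and 16330 matched none. The files' headers name another build, so only the promoter windows carry coordinates. Spots of a probe were averaged. The level is log2 of the processed signal minus the array's 75th percentile. The filter on dim probes asked for 3 of the 4 arrays of any genotype to be well above background, which 39338 probes met. Groups came from the sample titles. Genotype means were fitted to the 12 arrays together with limma 3.58.1 (R 4.3.3, 9 residual degrees of freedom), two-sided, with Benjamini-Hochberg adjustment over all probes of a contrast and a threshold of 0.05. For the lists, the probe with the highest mean stood for a gene. A probe without a symbol counted as a gene of its own, so all genes are 31849 probes past the filter. A gene with no array well above background in a genotype has only a bound there, against the lowest signal that counts as above background. The fit was tested on simulated data. The number of arrays limits the precision.

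All 16 member probes are described. Of each list, up to 4 called genes were named for the contrast between the mutants and some of the 3 largest differences against WT. The members, lists, tests and alternatives were chosen with earlier results of these data known. The alternatives were other scalings, the authors' values, background correction, filters, 1 probe per gene, slide and replicate as blocks, the 8 mutant arrays alone, a trended robust fit, and each array left out. The normexp background correction (offset 50) used the median spot signal and median background, in place of the mean spot signal first intended. Replicate numbers did not pair the samples: arrays of different genotype with the same number had correlations of their deviations from -0.15 to 0.22.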

Additional observations from a re-analysis of the deposited data

Results flagged for a closer look

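H2-T23 in Bmi1 null replicate 1 was at 3.26, far from the other 3 arrays of its genotype, at 4.08, 4.19 and 4.19. Its gap to the nearest of them was 0.882 of the genotype's range, above the critical value of 0.829 for 4 samples. In all 48 sets of 4 arrays were tested over the 16 probes, and 1 passed. Chance alone passes about 1 in 20. Without this array the H2-T23 difference of double null against Bmi1 null colonies was 0.55 (limma adjusted p = 0.324).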

How the results depend on the processing

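The count of 1 called member between the mutants, that of Tap1, was 1 in every alternative setting that was run, and 1 to 2 with each array left out, the 2 arising without double null replicate 2, when a Psmb8 probe was added. With the replicate block it was 1, and the numbers do not pair the samples. The number of calls over all probes was 3134, and it moved to 1932 with the replicate block, 502 with the slide as a fixed block, 1802 with quantile normalisation, 1726 with normexp and 1456 in the 8 mutant arrays alone. With an array left out it ran from 1962 to 3431, the lowest without double null replicate 3, and 1989 were called without Bmi1 null replicate 4. The share of higher and lower calls over all probes against WT also moved. With scaling to the median it was 16378 higher and 15344 lower in double null and 16403 and 14939 in Bmi1 null colonies, with quantile normalisation 15394 and 13744 in double null and 15286 and 13632 in Bmi1 null colonies, and with normexp 10543 and 12659 in double null colonies.

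The members' median against WT, relative to all probes, was 2.74 in double null colonies. It was 0.64 with quantile normalisation, 0.80 in the authors' values, 1.70 with normexp, 1.76 with probes above background on all 12 arrays, 2.44 with the slide as a fixed block and 1.95 within slide 2. In Bmi1 null colonies it was 1.99, and 0.54 with quantile normalisation, 0.54 in the authors' values, 1.12 with probes above background on all 12 arrays, 2.27 with 1 probe per gene and 1.39 within slide 2. The replicate block gave 2.75 and 2.04. With each array left out it ran from 2.53 to 2.91 in double null and from 1.82 to 2.25 in Bmi1 null colonies. Relative to all probes, H2-D1 A_51_P496996 turned to -0.0041 in Bmi1 null colonies in the authors' values, H2-T23 to -0.084 with quantile normalisation, and Tapbp A_52_P684830 to -0.32 with quantile normalisation and -0.47 in the authors' values. Tap2 turned to -0.087 in double null colonies in the authors' values, and to -0.28 in double null and -0.13 in Bmi1 null colonies with probes above background on all 12 arrays. Psmb9 turned to 0.18 in double null and 0.053 in Bmi1 null colonies with 1 probe per gene. The cause of these moves was not tested. The filter on all 12 arrays removes H2-Q1, which then has no value. Signal over background limits H2-Q1 to a bound against WT in double null colonies, and no size is given for it in Bmi1 null colonies.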
